A study of Mus musculus with 4 samples.

Results

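The endoplasmic reticulum (ER) is the main calcium store of a cell, and 10 genes for the proteins that release, refill and sense that store are described here. They are the IP3 receptors Itpr1, Itpr2 and Itpr3, the ryanodine receptors Ryr1, Ryr2 and Ryr3, the SERCA pumps Atp2a2 and Atp2a3, and the STIM sensors Stim1 and Stim2. The genes were taken by symbol, by the role of their proteins, and all 10 were found among the 32286 features of the count tables.

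IP3 receptors open when inositol trisphosphate, made after Gq-coupled receptors are activated, binds to them, and ryanodine receptors open when calcium entering the cell binds to them, so both release calcium from the ER into the cytosol. SERCA pumps use ATP to return it, and chaperones in the ER lumen, such as calreticulin, bind it there and need it for folding glycoproteins. STIM proteins span the ER membrane, sense a fall of lumenal calcium and open Orai channels of the plasma membrane, which is called store-operated entry. In neurons these genes serve dendritic and spine calcium signals, and the pump encoded by Atp2a2 (SERCA2) is the form found in most cells.

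The study asked what the loss of Sel1L, the adaptor of the Hrd1 ubiquitin ligase in ER-associated degradation (ERAD), does to neurons. Nuclei from the cortex and hippocampus of mice aged 5 weeks were sorted and sequenced as 4 libraries of 10x Genomics 3′ v3 chemistry, 1 mouse each. Of these, 2 are labelled Sel1L flox/flox and 2 are labelled Sel1L Syn-Cre, all on a C57BL/6J background per the study's methods. By the labels and the study's methods, all 4 mice carry floxed Sel1L. In the Syn-Cre animals a Cre transgene under the synapsin I promoter, which is active in neurons, deletes it. Glia and vascular cells are therefore not expected to be targets of the deletion, which was not checked in them. The counts do not show which neurons lost the gene. After filters on nuclei and doublets the libraries held 6797 to 11092 nuclei and 66073797 to 100678373 UMIs, with medians of 7232.5 to 8395 UMIs per nucleus. Libraries are named here by label and replicate, and the order is always flox/flox 1 and 2, then Syn-Cre 1 and 2.

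The labels were checked first. Sel1l RNA, counted over the whole gene, stood at 97.1 and 90.02 UMIs per 1000000 UMIs (CPM) in the libraries labelled flox/flox and at 155 and 128 CPM in those labelled Syn-Cre, so it was higher and not lower in the latter, and a 3′ count cannot show a deleted exon. Cre RNA was counted with 408, 0, 236 and 221 UMIs, so the library labelled flox/flox 1 carried Cre RNA. The genotype behind that label was not checked further. Xist was at 0.437, 1614, 2.20 and 1474 CPM and Ddx3y at 48.6, 0.0146, 48.7 and 0.0454 CPM. By these, flox/flox 1 and Syn-Cre 1 were male and flox/flox 2 and Syn-Cre 2 female. Leaving out a library therefore leaves its label with 1 sex. In fits without flox/flox 1, its Cre RNA and its sex cannot be told apart. The labels were kept, values without that library are given where it changed a call or a count of signs that is printed, and 122 barcodes were found in 2 libraries and 1 in 3, of 36495 distinct barcodes. Clusters were named by marker genes and are called X-like. Excitatory neurons of the cortex (L2/3 IT-, L4/5 IT-, L5/6 IT- and L6 CT-like), pyramidal and granule neurons of the hippocampus (CA1-, CA3- and DG-like) and interneurons (Pvalb-, Sst-, Vip- and Lamp5-like) were the 11 neuron subtypes tested, and astrocyte-, oligodendrocyte-, OPC- (oligodendrocyte precursor), microglia- and vascular-like nuclei were the 5 other classes tested.

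UMIs of each gene were summed per library and class, and the sums of the 2 Syn-Cre libraries were compared with those of the 2 flox/flox libraries by edgeR's quasi-likelihood test. A call is a Benjamini-Hochberg adjusted p below 0.05 over all genes of the class. Levels are CPM of the class in each library, a gene's level is compared between classes but not with that of another gene, and log2 fold changes are Syn-Cre against flox/flox with their standard error (SE). An exact permutation of 2 against 2 libraries cannot give a p under 0.333, so the model fitted across genes carries the tests. In a sum over nuclei, fewer cells that express a gene and less RNA per cell cannot be told apart.

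In the neuron subtypes the calls of the pump gene Atp2a2 were higher, those of Ryr2 and Ryr1 were lower, and Ryr3 had none. Of 83 pairs of a gene and a subtype that passed the filter on low counts, out of 110, 3 were called higher and 3 lower in the Syn-Cre libraries, where 1.11% and 0.823% of all gene and subtype pairs were called in these directions. The 3 called higher were Atp2a2 in DG-, Pvalb- and Sst-like neurons. The 3 called lower were Ryr2 in Pvalb- and Sst-like neurons and Ryr1 in Pvalb-like neurons. Of these calls in either direction, only Atp2a2 in Sst-like and Ryr2 in Pvalb-like neurons held in all 14 alternatives run. All other 77 pairs missed the threshold, and 20 pairs had an unadjusted p under 0.05. Such counts are given here and below without the share of all genes under it, so no excess can be read from them. Over all 83 the log2 fold change was positive in 25 and negative in 58. Without flox/flox replicate 1 this lean was all but gone, with positive and negative signs close to even in number over the genes together. Positive subtypes were then 7 of 11 for Itpr1, 5 of 11 for Stim1 and 8 of 11 for Stim2, against 2, 1 and 6 with all 4 libraries. They were 2 of 11 for Ryr2 and Ryr3 and 1 of 8 for Ryr1, against 0 for each. For Itpr2 they were 5 of 9, against 5 of 8, and for Atp2a2 11 of 11 in both. In the glial and vascular classes 38 of 50 pairs were tested and 2 were called higher, against 0.815% of all pairs, namely Itpr1 in astrocyte-like and Itpr2 in oligodendrocyte-like nuclei, and 0 were called lower, against 0.456%, with 8 pairs at an unadjusted p under 0.05. With all neuron-like nuclei summed as 1 class, edgeR called 0 of the 10 genes, against 0.144% of all genes, and 2 had an unadjusted p under 0.05, Ryr1 (log2 fold change -0.29, adjusted p = 0.299) and Atp2a2 (0.24, adjusted p = 0.373).

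**Figure D1:**
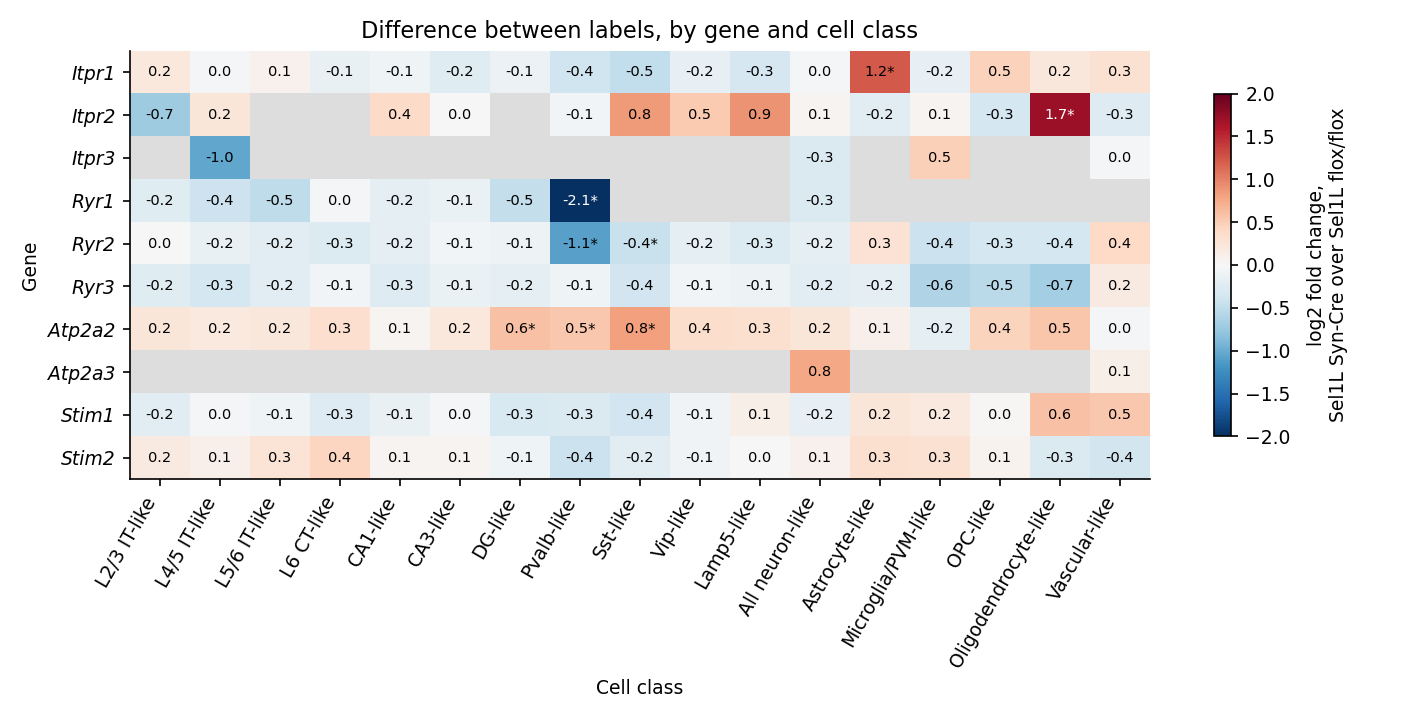
Log2 fold changes of the 10 genes (rows) in each tested class (columns), Syn-Cre against flox/flox libraries, as colour with the value printed, where an asterisk marks an adjusted p below 0.05 and grey a gene below the filter on low counts. The Atp2a2 row is positive in all 11 neuron subtypes, with asterisks in DG, Pvalb and Sst, and the Ryr2 row is negative in all 11 (9 of 11 with library sizes alone or without flox/flox replicate 1), with asterisks in Pvalb and Sst.

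Atp2a2 (chr5:122453513-122502225 of GRCm38, minus strand, like the spans of genes below from the GENCODE annotation) was higher in the Syn-Cre libraries in 3 subtypes of neurons. In Sst-like interneurons, which release somatostatin onto dendrites, it stood at 102 and 91.01 CPM in the flox/flox libraries and at 188 and 172 CPM in the Syn-Cre libraries. Both Syn-Cre libraries were well above both flox/flox libraries, and the log2 fold change was 0.82 ± 0.15 (SE, n = 2 and 2; adjusted p = 0.000529, edgeR). This call held in all 14 alternatives run, at log2 fold changes of 0.70 to 0.93. Sst-like neurons were also the subtype with the most calls among all genes, 9.49%.

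In DG-like neurons, the granule neurons of the dentate gyrus, Atp2a2 was at 124 and 123 CPM in the flox/flox libraries and at 204 and 179.5 CPM in the Syn-Cre libraries. The groups did not overlap and each Syn-Cre library was above both flox/flox libraries, with a log2 fold change of 0.58 ± 0.11 (adjusted p = 0.00863, edgeR). The call was lost without Syn-Cre replicate 1, where the log2 fold change was 0.47 and the adjusted p 0.0587, without the filter on low counts (0.56, adjusted p = 0.0743) and in thinned sums (0.56, adjusted p = 0.0633). In Pvalb-like neurons, the fast-spiking interneurons, the values were 160.2 and 160.0 CPM against 244 and 245 CPM. Replicates lay within 1 CPM of each other and the groups were far apart, with a log2 fold change of 0.54 ± 0.12 (adjusted p = 0.0303, edgeR). Leaving out any 1 of the 4 libraries ended this call, at log2 fold changes of 0.50 to 0.57 and adjusted p-values of 0.0768 to 0.193, as did no filter on low counts (0.52, adjusted p = 0.174) and thinned sums (0.44, adjusted p = 0.133).

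The direction was shared by the other subtypes without further calls. The log2 fold change of Atp2a2 was positive in 11 of 11 subtypes, from 0.053 in CA1-like to 0.82 in Sst-like neurons with a median of 0.32, also with library sizes alone in place of TMM scaling. It turned negative in CA1-like neurons with names made without integration and without flox/flox replicate 2. Both Syn-Cre libraries lay above both flox/flox libraries in 10 of 11 subtypes, all but CA1, where 27.1% of all gene and subtype pairs did so. The subtypes come from the same 4 mice, so counts of subtypes are not counts of independent observations. The share of all genes with the same sign in every subtype is not given here. In 6 subtypes the unadjusted p was under 0.05. L6 CT-like neurons, which project to the thalamus, had 190.0 and 182 CPM against 253 and 237 CPM, and Lamp5-like interneurons 169 and 170.2 CPM against 231 and 223 CPM. Vip-like interneurons had 97.4 and 98.5 CPM against 128 and 127 CPM. These 3 subtypes had log2 fold changes of 0.33, 0.32 and 0.36 and adjusted p-values of 0.294, 0.431 and 0.736. In CA1-like neurons the libraries overlapped, at 159, 151, 159 and 175 CPM.

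Among the other classes, Atp2a2 gave 122 and 111 CPM in the flox/flox and 168 and 179.7 CPM in the Syn-Cre libraries in oligodendrocyte-like nuclei, and 131 and 149 against 198 and 182 CPM in OPC-like nuclei. The groups did not overlap in either class, and neither passed the test (log2 fold changes of 0.55 and 0.45, adjusted p = 0.146 and 0.162). Astrocyte-like nuclei (219.8, 248, 244 and 269.9 CPM) and microglia-like nuclei (170.2, 147, 151 and 136 CPM) overlapped between the labels. The pump was counted in all 17 tested classes of all 4 libraries, from 91.01 CPM in Sst-like neurons to 269.9 CPM in astrocyte-like nuclei.

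**Figure D2:**
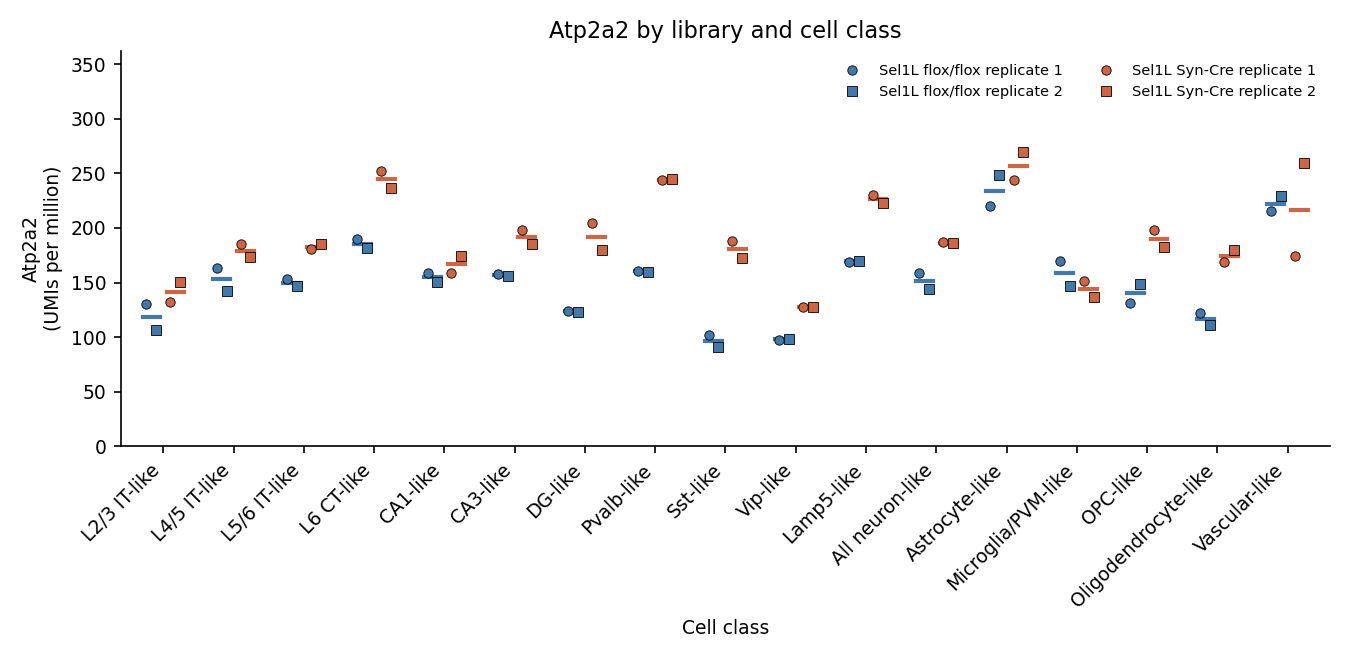
Atp2a2 in CPM (vertical axis) for each of the 4 libraries (points, coloured by label) in the 17 tested classes, with a bar at each group's mean. The points of the Syn-Cre libraries lie above those of the flox/flox libraries in every neuron subtype but CA1, and in Sst-like neurons the means are 96.4 and 180.4 CPM.

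Atp2a3, the gene of SERCA3, was close to absent from neurons and was counted in vessel cells. It was at 1 CPM or less in the neuron subtypes of every library and was tested among vascular-like nuclei, where it gave 25.4, 28.7, 29.3 and 27.01 CPM. These 4 values overlapped (log2 fold change 0.12 ± 0.47, adjusted p = 0.993). Within them, pericyte-like nuclei had 109, 0, 166 and 231 CPM and endothelial-like nuclei 16.3, 96.03, 34.2 and 16.5 CPM, which rest on 3 to 84 nuclei per library and were not tested.

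Ryr2 and Ryr1 were lower in Pvalb-like neurons of the Syn-Cre libraries. Ryr2, the form of heart and brain (chr13:11553102-12106945, minus strand), was at 435 and 385 CPM in the flox/flox libraries and at 203 and 205 CPM in the Syn-Cre libraries. The Syn-Cre libraries were close to each other and far below both flox/flox libraries, with a log2 fold change of -1.08 ± 0.13 (adjusted p = 0.000819, edgeR), and the call held in all 14 alternatives run (-1.20 to -0.68). In the same nuclei the sum of the Pvalb-like markers was 4959 and 4467 CPM against 3752 and 3828 CPM, lower in both Syn-Cre libraries, and Slc17a7, the vesicular transporter of excitatory neurons, was at 11.2, 11.1, 14.9 and 8.13 CPM. The part of the marker difference in the Ryr2 result was not tested. In Sst-like neurons Ryr2 was at 709 and 611 CPM against 500.0 and 529.8 CPM. The groups did not overlap and the log2 fold change was -0.44 ± 0.13 (adjusted p = 0.0371, edgeR), but the call held in only 4 of 14 alternatives, with adjusted p-values up to 0.354. It was lost without flox/flox replicate 1, Syn-Cre replicate 1 or Syn-Cre replicate 2, and over the 4 fits with a library left out the log2 fold change ran from -0.59 to -0.30. In Sst-like nuclei the sum of the Sst-like markers was 1373 and 1296 CPM against 1029 and 1275 CPM, lower in both Syn-Cre libraries. The summed neuron markers of Sst-like nuclei were 4687 and 4427 CPM against 3942 and 4166 CPM, also lower in both. In Pvalb-like nuclei the summed neuron markers were 3622, 3681, 3436 and 3737 CPM and overlapped between the labels.

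Ryr1, the form of skeletal muscle that is found at low levels in brain (chr7:29003344-29125179, minus strand), was counted in Pvalb-like neurons with 32 and 24 UMIs in the flox/flox libraries and 4 and 7 UMIs in the Syn-Cre libraries. That is 8.95 and 9.89 CPM against 1.70 and 2.85 CPM, a log2 fold change of -2.08 ± 0.43 (adjusted p = 0.0187, edgeR). The difference rests on few molecules and the call held in 7 of 12 alternatives; it was lost without flox/flox replicate 1, flox/flox replicate 2 or Syn-Cre replicate 1, and the fits with a library left out gave log2 fold changes of -2.51 to -1.78 and adjusted p-values of 0.0343 to 0.148. In DG-like neurons Ryr1 was at 55.7 and 56.97 CPM against 45.3 and 39.1 CPM, where the groups did not overlap and the adjusted p was 0.0798 at a log2 fold change of -0.47 ± 0.14. Annotated antisense genes (Gm38979 and Gm26604) lie over Ryr1 and are features of their own in the count tables. Whether the counting used strand is not stated in the sources used here, and whether any of their reads entered the Ryr1 counts was not checked.

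Ryr3, a form of hippocampus and other brain regions, passed the test in no class. Its values in Sst-like neurons were 109 and 140.0 CPM against 89.8 and 111 CPM (log2 fold change -0.39 ± 0.16, adjusted p = 0.138) and in L4/5 IT-like neurons 166 and 133 CPM against 125 and 116 CPM (-0.35 ± 0.14, adjusted p = 0.286). The groups overlapped in the first and not in the second. Outside neurons, OPC-like nuclei had 208 and 201 CPM against 123 and 158 CPM. Both Syn-Cre libraries were lower there, at a log2 fold change of -0.54 ± 0.17 and an adjusted p of 0.0646. The gene overlaps Aven, which is protein coding and on the opposite strand, over 3219 bases.

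Across subtypes, which come from the same 4 mice and are not independent, the ryanodine receptors leaned one way. The log2 fold change of Ryr2 was negative in 11 of 11 subtypes (-0.0028 in L2/3 IT-like to -1.08 in Pvalb-like neurons, median -0.18), that of Ryr1 in 8 of 8 tested and that of Ryr3 in 11 of 11, but with library sizes alone these counts were 9 of 11 for Ryr2 (L2/3 IT and CA3 turned positive), 7 of 8 for Ryr1 and 10 of 11 for Ryr3 (L6 CT turned positive in both). Without flox/flox replicate 1, the only male flox/flox mouse and the one with Cre RNA, they were 9 of 11 for Ryr2 (the same 2 subtypes turned positive, with a median of -0.073). They were then 7 of 8 for Ryr1 and 9 of 11 for Ryr3 (L6 CT and Vip turned positive). Both Syn-Cre libraries lay below both flox/flox libraries in 7 of 11 subtypes for Ryr2, 5 of the 8 tested for Ryr1 and 4 of 11 for Ryr3. Of all tested gene and subtype pairs, 16.2% did so. None of the other Ryr2 differences passed the test. In L6 CT-like neurons Ryr2 was at 1395 and 1222 CPM against 1132 and 1121 CPM (adjusted p = 0.5), and in Vip-like neurons at 475 and 414 CPM against 404 and 396 CPM (adjusted p = 0.827).

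**Figure D3:**
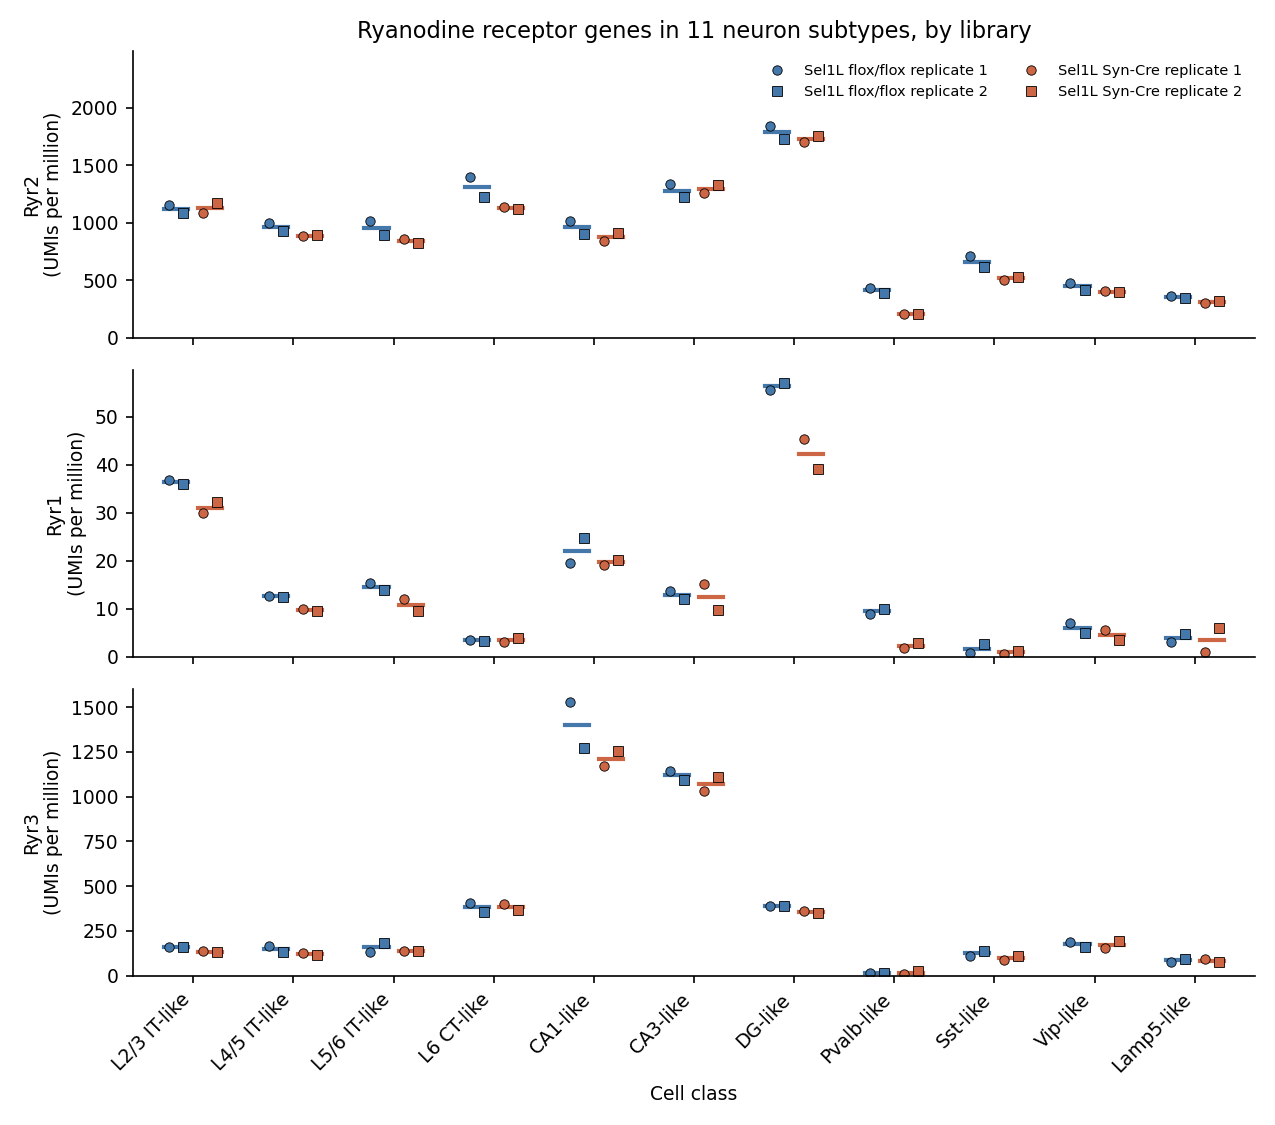
CPM of Ryr2, Ryr1 and Ryr3 (1 panel each, vertical axis) in the 11 neuron subtypes (horizontal axis), with a point for each library coloured by label and a bar at each group's mean. In Pvalb-like neurons the Ryr2 points of the flox/flox libraries are at 435 and 385 CPM and those of the Syn-Cre libraries at 203 and 205 CPM, while in DG-like neurons, the highest for Ryr2, the labels overlap.

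The ryanodine receptors differed in the subtypes where they were highest. Ryr2 was highest in DG-like neurons, at 1838, 1731, 1700.1 and 1753 CPM, followed by CA3-like neurons at 1332, 1225, 1256 and 1330.1 CPM, with no overlap between these subtypes. L6 CT-like neurons came next and overlapped with CA3. Lamp5-like neurons (358, 342, 305 and 314 CPM) and Pvalb-like neurons were at the low end. Ryr3 had another order. It was highest in CA1-like neurons at 1527, 1275, 1174 and 1253 CPM, then in CA3-like neurons at 1145, 1094, 1034 and 1109 CPM and then in L5 PT-like neurons (thick-tufted cells that project out of the cortex) at 951, 796, 819 and 837 CPM, and these 3 ranges did not overlap. Thalamus-like neurons, at 1296, 349.8, 1280.1 and 980.2 CPM from 247, 13, 50 and 65 nuclei, overlapped with all 3. L6b-like neurons overlapped with L5 PT, and Pvalb-like neurons were lowest at 15.9, 16.1, 8.51 and 23.2 CPM. Ryr1 was highest among the tested subtypes in DG-like neurons, then in L2/3 IT-like neurons at 36.8, 36.04, 29.9 and 32.2 CPM. L5 PT-like neurons, which are not among the 11 subtypes tested, overlapped with DG at 42.7, 51.1, 43.6 and 48.6 CPM.

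**Figure D4:**
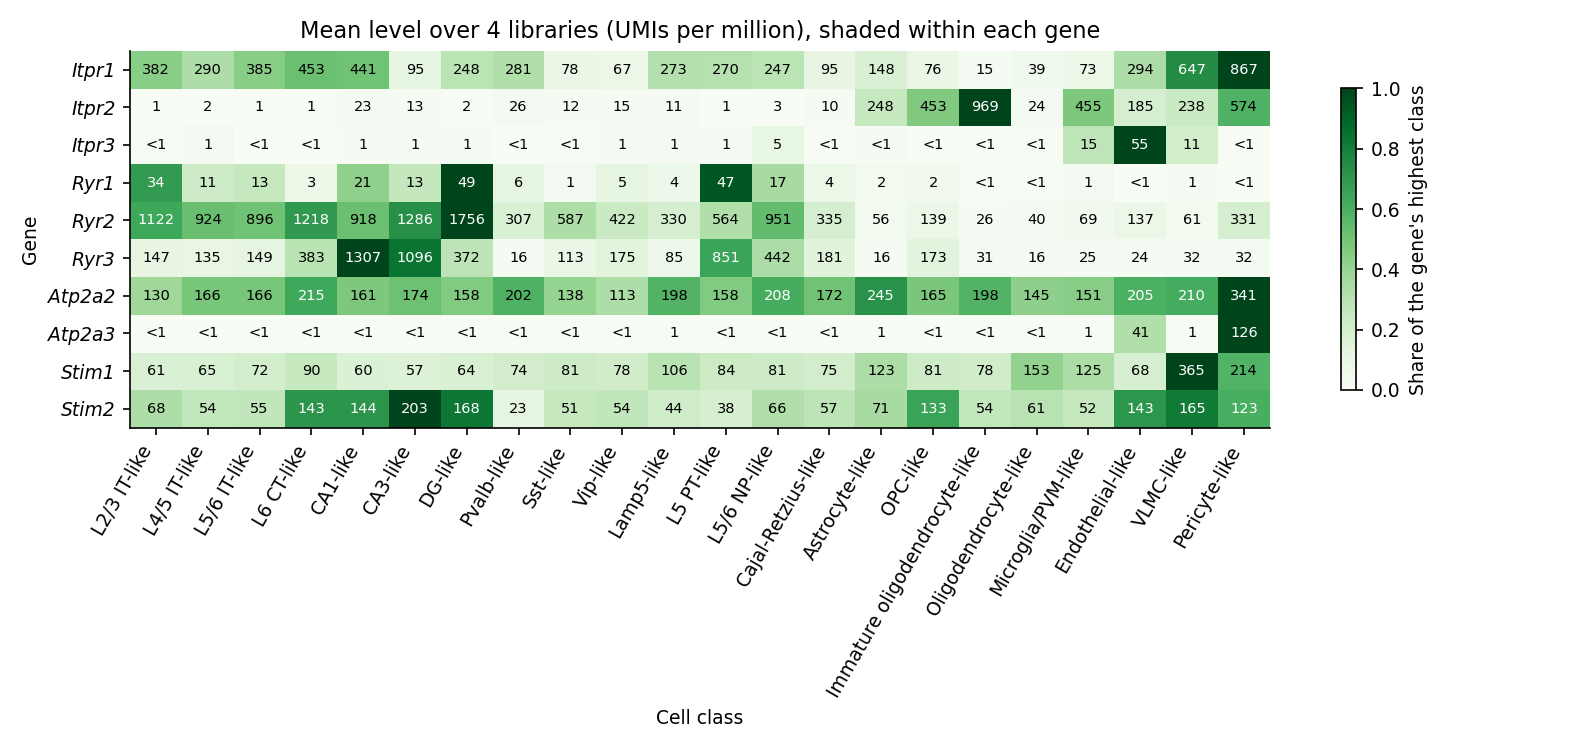
Mean CPM over the 4 libraries of the 10 genes (rows) in named classes and subtypes (columns), without L6b-, thalamus- and neuroblast-like neurons. The value is printed in each cell and shaded by its share of the row's highest value, so shades compare classes within a gene and not genes. Ryr2 is darkest in DG-like, Ryr3 in CA1-like and Stim2 in CA3-like neurons, and Itpr2 in immature oligodendrocyte-like nuclei.

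To show the DNA in front of the start sites of the 2 ryanodine receptors that were lower in Pvalb-like neurons, their RefSeq windows (GRCm38.p6, 250 bases before to 50 after the annotated start, minus strand in both) are printed 5′ to 3′ on the strand of the gene. Ryr2 lies at chr13:12106896-12107195 and Ryr1 at chr7:29125102-29125401.
Ryr2: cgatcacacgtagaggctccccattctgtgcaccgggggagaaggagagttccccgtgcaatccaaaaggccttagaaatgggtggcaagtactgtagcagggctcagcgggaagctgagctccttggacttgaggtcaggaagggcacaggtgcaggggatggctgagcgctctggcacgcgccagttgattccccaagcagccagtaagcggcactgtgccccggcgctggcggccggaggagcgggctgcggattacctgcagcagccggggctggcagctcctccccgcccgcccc
Ryr1: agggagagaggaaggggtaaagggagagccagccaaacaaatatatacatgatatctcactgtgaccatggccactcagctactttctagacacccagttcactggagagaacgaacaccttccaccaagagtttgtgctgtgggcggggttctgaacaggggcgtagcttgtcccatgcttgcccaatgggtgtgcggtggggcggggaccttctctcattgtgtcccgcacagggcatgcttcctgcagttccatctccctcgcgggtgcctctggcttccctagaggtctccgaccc
A window was found for 7 of the 10 genes, all but Itpr1, Ryr3 and Atp2a2, which are named only. On both strands they were searched for 5 motifs of the ER stress and CREB/ATF factors. These were the ER stress element ERSE (CCAAT and CCACG with 9 bases of any kind between them), ERSE-II (ATTGG and CCACG with 1 base between them), the XBP1/ATF6 core (TGACGTG), the cAMP response element CRE (TGACGTCA, whose first 6 letters are those of the XBP1/ATF6 core) and the amino acid response element CARE (TGATGNAAT). None of the 7 windows held any of them, and these motifs were held by 0.119%, 0.0365%, 2.01%, 1.79% and 0.965% of all 32851 windows of this length. No match says only that these letters are not in these windows.

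The IP3 receptors passed the test in no neuron subtype. Itpr1, the main IP3 receptor of neurons (chr6:108213096-108551109, plus strand), was at 330.0 and 296 CPM in the flox/flox and 237 and 261 CPM in the Syn-Cre libraries in Pvalb-like neurons, and at 82.1 and 94.7 CPM against 60.1 and 73.3 CPM in Sst-like neurons. In both subtypes the Syn-Cre libraries lay below the flox/flox libraries, with log2 fold changes of -0.40 ± 0.13 and -0.49 ± 0.16 and adjusted p-values of 0.121 and 0.0628. In L2/3 IT-like neurons both were above, at 397 and 306 CPM against 413 and 411 CPM (adjusted p = 0.622). The log2 fold change was negative in 9 of 11 subtypes but, without flox/flox replicate 1, it was positive in 7 of 11. That library carried Cre RNA and was the only male one labelled flox/flox. Itpr1 was highest in vessel-associated nuclei, at 527, 707, 621 and 732 CPM in those like vascular leptomeningeal cells (VLMC) and at 595, 269, 1054 and 1552 CPM in pericyte-like nuclei, the latter from 47, 3, 41 and 18 nuclei. Among neurons L6 CT-like (491, 442, 436 and 444 CPM) and CA1-like (486, 406, 450.0 and 423 CPM) were highest and overlapped, and Vip-, Sst- and CA3-like neurons were lowest and overlapped, with 80.3, 59.3, 58.4 and 70.2 CPM in Vip-like neurons. The antisense gene Gm44040 lies within Itpr1 over 6659 bases.

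In astrocyte-like nuclei Itpr1 was at 85.6 and 87.6 CPM in the flox/flox and 169 and 249.6 CPM in the Syn-Cre libraries, a log2 fold change of 1.23 ± 0.20 (adjusted p = 0.0159, edgeR). Markers of choroid plexus epithelium, the secretory lining of the ventricles, moved with it. Their sum in these nuclei was 991 and 101 CPM against 3730.1 and 3097 CPM, and that of endothelial markers 24.4 and 9.29 CPM against 59.1 and 99.1 CPM. All 6 markers of each list were counted in every library except flox/flox 2, where 1 of each was at 0. Of the 1702 astrocyte-like nuclei, 74 (12, 1, 45 and 16 per library) did not have this name when the libraries were clustered without integration. Those 74 held Itpr1 at 1126 CPM and Ttr, the transthyretin of choroid plexus, at 16144 CPM, with Aqp4, the water channel of astrocytes, at 50.7 CPM. The 1628 nuclei that kept the name held Itpr1 at 69.3, 88.1, 75.2 and 139 CPM, where only Syn-Cre replicate 2 was above the rest. With the names made without integration the log2 fold change was 0.42 (adjusted p = 0.603) and with doublets kept it was 0.50 (adjusted p = 0.323), so the call was lost in both.

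**Figure D5:**
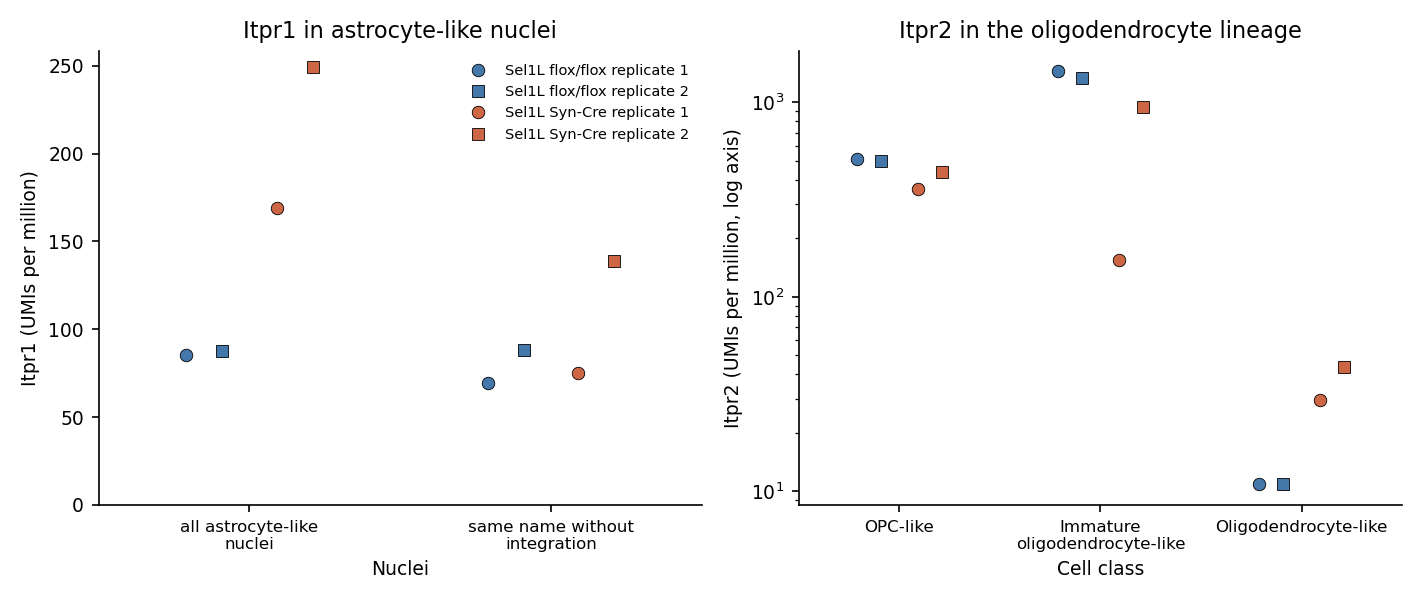
Left, Itpr1 in CPM for each library (points, coloured by label) in all astrocyte-like nuclei and in those that kept the name without integration. Right, Itpr2 in CPM on a log axis in OPC-, immature oligodendrocyte- and oligodendrocyte-like nuclei. The Syn-Cre points for Itpr1 drop from 169 and 250 CPM (left group) to 75.2 and 139 CPM (right group), and Itpr2 runs from above 1000 CPM in immature nuclei of the flox/flox libraries to 10.9 CPM in their oligodendrocyte-like nuclei.

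Itpr2 (chr6:146108299-146502223, minus strand) is the main IP3 receptor of astrocytes and was counted here mostly in glia and vessel-associated nuclei. Its highest mean was in immature oligodendrocyte-like nuclei, a short stage between precursors and myelinating cells, with 1443 and 1337 CPM in the flox/flox and 155 and 942 CPM in the Syn-Cre libraries, from 113, 65, 8 and 3 nuclei, too few to test. OPC-like nuclei had 512 and 502 CPM against 361 and 438 CPM (log2 fold change -0.35 ± 0.15, adjusted p = 0.296), and microglia-like nuclei 408, 471, 441 and 500.2 CPM, which overlapped with OPC. Astrocyte-like nuclei were below both, at 273, 253, 234 and 230.1 CPM, and overlapped with vascular-like nuclei at 292, 272, 261 and 208 CPM. Pericyte-like nuclei, within the vascular class, had 837, 538, 391 and 528 CPM from 47, 3, 41 and 18 nuclei. In neuron subtypes it was at most 34.5 CPM, in CA1-like neurons.

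In oligodendrocyte-like nuclei Itpr2 was low and higher in the Syn-Cre libraries, with 73 and 38 UMIs in the flox/flox libraries, from 1839 and 1173 nuclei, and 32 and 45 UMIs in the Syn-Cre libraries, from 354 and 365 nuclei. That is 10.9 and 10.9 CPM against 29.6 and 43.7 CPM, a log2 fold change of 1.71 ± 0.26 (adjusted p = 0.00968, edgeR). The call was lost without the filter on low counts (adjusted p = 0.223) and with doublets kept (adjusted p = 0.177). Enpp6, a marker of immature oligodendrocytes, was at 129, 91.5, 139.7 and 70.9 CPM in these nuclei and overlapped between the labels, while the summed oligodendrocyte markers were 18902 and 17882 CPM against 16793 and 14428 CPM, lower in both Syn-Cre libraries. Whether these bear on Itpr2 was not tested. Low values of Itpr2 in Sst-like neurons (7.97 and 9.05 CPM against 16.2 and 16.02 CPM) and in Lamp5-like neurons (7.67 and 6.51 CPM against 14.6 and 14.4 CPM) also did not overlap, at adjusted p-values of 0.108 and 0.428.

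Itpr3, the form of epithelia and secretory cells, was found in endothelial-like nuclei at 76.1, 48.02, 68.4 and 27.5 CPM and in microglia-like nuclei at 11.02, 14.6, 18.9 and 17.1 CPM. In the latter the Syn-Cre libraries were above the flox/flox libraries without passing the test (log2 fold change 0.47 ± 0.37, adjusted p = 0.766). Of the neuron subtypes only L4/5 IT-like neurons passed the filter for it, with an adjusted p of 0.409.

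The STIM sensors passed the test in none of the 17 classes, all neurons included. Stim1 had its largest negative log2 fold changes in Sst-like neurons, at 84.5 and 93.7 CPM against 67.1 and 77.6 CPM, and in DG-like neurons, at 72.9 and 66.05 CPM against 57.2 and 60.1 CPM. Both Syn-Cre libraries were lower in each (-0.38 ± 0.16 and -0.30 ± 0.13, adjusted p = 0.142 and 0.233). The sign was negative in 10 of 11 subtypes, 9 of 11 with library sizes alone and 6 of 11 without flox/flox replicate 1. In oligodendrocyte-like nuclei it went the other way, at 119 and 123 CPM against 168 and 200.1 CPM (log2 fold change 0.58 ± 0.16, adjusted p = 0.126). Its level was highest in VLMC-like nuclei (203, 420.0, 238 and 599 CPM) and lay between 49.3 and 124 CPM in the neuron subtypes tested.

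Stim2, the sensor that responds to small falls of the store, was highest among neurons in CA3-like ones, which had 192, 196, 216 and 208 CPM, above DG-like neurons at 182, 156, 165 and 168 CPM, which overlapped with CA1-like neurons at 155, 123, 160.3 and 138 CPM. L6 CT-like neurons at 128, 110.3, 181 and 155 CPM overlapped with both of the latter. Vascular-like nuclei (211, 129, 139 and 138 CPM) overlapped with all 4 subtypes. Pvalb-like neurons were lowest at 24.9, 27.2, 17.4 and 23.2 CPM, below L5 PT-like neurons at 36.04, 34.5, 39.7 and 40.5 CPM, with no overlap. Between labels the log2 fold change was most positive in L6 CT-like neurons, at 128 and 110.3 CPM against 181 and 155 CPM, with no overlap of the groups, a log2 fold change of 0.42 ± 0.15 and an adjusted p of 0.24.

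The remaining genes of ER calcium handling were followed as a list of 79 genes that does not include the 10, all of them in the count tables. In DG-like neurons 9 of the 71 tested were called higher and 3 lower, where 3.68% of all genes were called in either direction. In Pvalb-like neurons it was 8 and 2 of 64, beside 4.07% of all genes, and in Sst-like neurons 12 and 6 of 64, beside 9.49%. The medians of the list stood at -0.08, -0.11 and -0.02 on the log2 scale, next to 0.0079, 0.0095 and 0.0088 for all genes tested in these subtypes, and most of the list was not called. Over the 11 subtypes 44 of 747 pairs were called higher and 12 lower, where 1.11% and 0.823% of all gene and subtype pairs were called in these directions. There were 0 calls among 71 genes in CA1-like and 64 genes in Vip-like neurons, where edgeR called 0.00777% and 0.0269% of all genes. In OPC-like nuclei 6 of 67 were called higher and 0 lower, beside 3.53% of all genes, and in oligodendrocyte-like nuclei 2 of 63 were called higher, beside 1.2%.

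The genes called higher were mostly lumenal calcium-binding chaperones and buffers. Of these, 7 of 10 tested rose in DG-like neurons (median log2 fold change 1.11), 7 of 9 in Pvalb-like (1.40), 7 of 9 in Sst-like (1.42) and 6 of 10 in OPC-like nuclei (1.00). Hspa5, the ER chaperone BiP, had 27.9 and 27.5 CPM in the flox/flox and 137 and 117 CPM in the Syn-Cre libraries in DG-like neurons (a rise of 2.14 ± 0.13 on the log2 scale, adjusted p = 9.19e-07) and 19.4 and 25.01 against 287 and 144 CPM in Sst-like neurons (3.22 ± 0.24). It was called in 11 of the 17 classes, all neurons included. Calr, calreticulin, rose by 1.40 ± 0.18 in Pvalb-like neurons and Canx, calnexin, by 0.95 ± 0.19 in OPC-like nuclei. Nucb2, a calcium-binding nucleobindin, rose by 2.48, 2.65 and 2.30 in DG-, Pvalb- and Sst-like neurons, and Hsp90b1, the ER chaperone Grp94, by 2.08, 2.01 and 2.21. In the same subtypes the refilling pump Atp2a2 changed by 0.58, 0.54 and 0.82. The study had already reported Hspa5, Hsp90b1, Calr and Canx as raised in DG, Pvalb and Sst neurons of these same libraries. The list was chosen with earlier results of these data known. The chaperone calls, and the counts of the whole list that include them, are therefore not separate support.

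The start-site windows of 4 of these chaperone genes hold the ERSE letters, and they are shown because they carry a motif that was not found in the 7 windows searched above, which do not include that of Atp2a2. Of the 79 listed genes 59 had a window, 78 windows in all, and ERSE was found in Calr, Canx, Hsp90b1 and Hspa5, against 0.119% of all windows. The motif was searched as a known one of ER stress, so this share is a description only. Nucb2 and Pdia4, also called higher in DG-, Pvalb- and Sst-like neurons, were not among the genes with a match. Whether they had a window is not given here. Each is printed 5′ to 3′ on the gene's strand with 30 bases on either side of the match, which is in capitals (on the opposite strand where it begins with CGTGG), and Hsp90b1 has a pair of matches. The positions are chr2:34771995-34772073 (plus strand), chr10:86705503-86705686, chr8:84847045-84847123 and chr11:50325770-50325848 (minus strand), all GRCm38.p6 from RefSeq.
Hspa5: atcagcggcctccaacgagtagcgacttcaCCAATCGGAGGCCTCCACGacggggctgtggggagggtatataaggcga
Hsp90b1: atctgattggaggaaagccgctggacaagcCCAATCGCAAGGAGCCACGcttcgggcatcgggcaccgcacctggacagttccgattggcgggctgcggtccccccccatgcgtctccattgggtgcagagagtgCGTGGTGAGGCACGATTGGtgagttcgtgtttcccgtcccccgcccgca
Calr: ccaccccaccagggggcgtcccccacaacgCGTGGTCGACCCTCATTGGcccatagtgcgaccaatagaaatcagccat
Canx: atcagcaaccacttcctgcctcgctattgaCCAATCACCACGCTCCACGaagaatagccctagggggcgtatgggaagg
A match is a description of the letters and not a shown binding site. Nucb1 held ERSE-II. The XBP1/ATF6 core was held by 7 of the 59 genes, beside 2.01% of all windows, and a gene can have more than 1 window. They were Ahcyl1, Ahcyl2, Fkbp1b, Homer1, Hspa5, Trpc1 and Vdac1, of which only Homer1 and Hspa5 were called in any class.

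Outside the chaperones the calls were fewer and in both directions. Homer1, the scaffold that ties group I metabotropic receptors to IP3 receptors, rose in L2/3 IT-, L4/5 IT-, L5/6 IT-, L6 CT- and Sst-like neurons, for example from 358 and 204 CPM to 959.7 and 977 CPM in L6 CT-like neurons (1.71 ± 0.22). Grm5, the metabotropic glutamate receptor mGluR5 that drives IP3 production, fell in Sst-like neurons from 2034 and 2416 CPM to 1284 and 1404 CPM (-0.81 ± 0.14). Jph1, a junctophilin that holds the ER to the plasma membrane at release sites, fell in L6 CT-, DG- and Sst-like neurons (-0.58 ± 0.10 in DG). Trpc5, a plasma membrane cation channel, fell in DG-, Pvalb- and Sst-like neurons (-0.67 ± 0.11 in DG). Its change of -1.86 ± 0.38 in Pvalb-like neurons rests on few UMIs, 54 and 25 in the flox/flox and 8 and 10 in the Syn-Cre libraries. Atp2c1, the calcium pump of the Golgi, fell in DG- and Sst-like neurons (-0.51 ± 0.10 in DG). Of the 7 genes of mitochondrial calcium uptake, 0 of 6 tested were called in DG-, Pvalb- or Sst-like neurons by edgeR.

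Whether the fold changes differed between subtypes was tested by an interaction in edgeR with CA1-like neurons as the reference, for 24 pairs of a gene and a subtype. The subtypes compared, DG-, Pvalb- and Sst-like, are those with calls above. CA1 was the reference because the study found SEL1L largely kept there, and Atp2a2 had its smallest fold change in it. The test uses the same libraries and is not independent of those calls. In Pvalb-like neurons the Ryr2 fold change differed from that in CA1-like neurons by -0.88 ± 0.13 on the log2 scale (adjusted p = 0.00175) and that of Ryr1 by -1.88 ± 0.45 (adjusted p = 0.0406), where 1.77% of all genes were called. The Atp2a2 fold change was larger than in CA1-like neurons by 0.77 ± 0.15 in Sst-like (adjusted p = 0.00924, 2.95% of all genes called) and by 0.54 ± 0.13 in DG-like neurons (adjusted p = 0.0128, 2.57% called). For Atp2a2 in Pvalb-like neurons the difference was 0.50 ± 0.14 and missed the threshold (adjusted p = 0.0784). Only that of Ryr2 held in all of its 6 alternatives. With Vip-like neurons as the reference the difference of Ryr1 in Pvalb-like neurons was -1.69 (adjusted p = 0.371). That of Atp2a2 was then 0.47 for the Sst-like subtype (adjusted p = 0.189) and 0.18 for the DG-like one (adjusted p = 0.771), so none of these 3 passed. Without flox/flox replicate 1, flox/flox replicate 2 or Syn-Cre replicate 1 both Atp2a2 differences missed the threshold, at 0.41 to 0.67 in DG-like and 0.61 to 0.87 in Sst-like neurons over the 4 fits with a library left out, and that of Ryr1 missed it without any 1 library, at -2.30 to -1.57.

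Nuclei of the Syn-Cre libraries were also split by whether they held a UMI of Derl3, an ERAD gene that ER stress induces. In the Sst-like class a Derl3 UMI was found in 59.6% and 47.5% of the Syn-Cre nuclei and in 0 of 251 and 0 of 181 flox/flox nuclei, which allows shares of up to 1.20% and 1.66% by counting error alone. In the Pvalb-like class it was found in 54.8% and 39.3% of the Syn-Cre nuclei and in 4 of 292 and 0 of 222 flox/flox nuclei (up to 1.35% for the latter), and in the DG-like class in 36.4% and 23.8% against 0.352% and 0.380%. CA1-like neurons held it in 2.14% and 1.43% of the Syn-Cre nuclei. In microglia-like nuclei, which Syn-Cre is not expected to target, it was found in 1.29% of nuclei and in 0 of 343 in the Syn-Cre libraries (up to 0.875% for the latter). The flox/flox libraries held it in 1 of 821 and 0 of 620 microglia-like nuclei (up to 0.484% for the latter). Median depths of microglia-like nuclei were 1885, 1745.5, 1771 and 1913 UMIs, beside 10168, 9109, 9056 and 8723 in the Sst-like class. Other classes that Syn-Cre is not expected to target held more, with 7.55% and 4.92% of OPC-like nuclei in the Syn-Cre against 0.251% and 0.838% in the flox/flox libraries, and 11.02% and 1.92% of oligodendrocyte-like nuclei against 0.109% and 0.171%. Ryr2 in Pvalb-like neurons was at 232 and 216 CPM in nuclei with a Derl3 UMI and at 162 and 197 CPM in those without, per Syn-Cre library. All 4 values lay below the flox/flox libraries. Atp2a2 was at 208 and 173 CPM with and 157 and 172 CPM without Derl3 in Sst-like neurons, at 214 and 205 CPM with and 198 and 171 CPM without in DG-like neurons and at 239.7 and 251 CPM with and 250.3 and 240.2 CPM without in Pvalb-like neurons, so nuclei without the UMI were also above the flox/flox libraries. Over all subtypes and both libraries Atp2a2 was higher with Derl3 in 15 of 21 pairs (median ratio 1.08), and in 12 of 15 when nuclei were thinned to 4000 UMIs (1.20). Ryr2, unlike in the Pvalb-like neurons above, was lower with Derl3 in 13 of 21 pairs and higher in 8 (median ratio 0.97). After thinning it was lower in 14 of 19 and higher in 5 (0.90). Over the 10 genes together the value with Derl3 was the higher in 68 of 139 pairs, and in 45 of 91 after thinning. Itpr3 and Atp2a3 gave 0 of these pairs, and after thinning Itpr2 gave 1 and Ryr1 2. Nuclei with a Derl3 UMI were deeper, with medians of 7737 and 7595 UMIs against 6728 and 7186 in DG-like neurons, and the values are a description with no test.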

How the data were processed

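Reads were aligned and counted by the authors in Cell Ranger 6.1.0 on GRCm38 (per the submitters' processing notes), who deposited raw UMI counts of 32286 features per nucleus, not normalized and with no filter on doublets. Whether introns or strand were used in counting is not given in the sources used here. From these counts, only nuclei above 600 genes and below 5% mitochondrial UMIs were used, and doublets (Scrublet in scanpy 1.11.5, 0.8% per 1000 nuclei) left out. The libraries were integrated and clustered in Seurat 5.3.0 (2000 variable features, 17 dimensions, resolutions of 0.2 for all nuclei and 0.4 for neurons), and clusters were named from marker lists with at least 3 markers detected. Immature oligodendrocyte-, VLMC- and pericyte-like names came from a clustering in scanpy without integration. They split the OPC-, oligodendrocyte- and endothelial-like clusters, so names without integration are not a fully separate alternative for these. The 11 neuron subtypes were a set list, and the glial and vascular classes were those with at least 20 nuclei in every library. Neurons with some other names, such as L5 PT-, L5/6 NP- and L6b-like ones, also reached this number but entered only the sum of all neurons. The classes were summed per library and tested with edgeR 4.0.16 (R 4.3.3, TMM, filterByExpr, two-sided quasi-likelihood F test, Benjamini-Hochberg). The SE of a log2 fold change was taken from it and its F statistic. CPM are UMIs per 1000000 UMIs of the summed class, before TMM.

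The 10 genes, the list of 79 genes, the markers and the tests were chosen with earlier results of these data known. From the list, the text names genes among the 4 with the smallest adjusted p in each direction in a class. Alternatives were DESeq2 1.42.0, other tests and scaling in edgeR, other filters, thinned sums, doublets kept, names without integration, a replicate block and each library left out. On simulated counts with a log2 change of 1.5, edgeR recovered 177 of 194 changed genes in DG-like, 168 of 192 in Sst-like and 173 of 196 in OPC-like sums. The interaction of DG- against CA1-like neurons recovered 108 of 197 with edgeR and 56 of 197 with DESeq2. Other genes called numbered 15, 14 and 3 in the sums and 2 and 0 in the interaction. Recovery at smaller log2 changes was not tested. Gene positions and overlaps are from GENCODE vM21. Intervals beyond these were not computed, and the 4 mice limit the precision. Results of some listed genes are not reported here.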

Additional observations from a re-analysis of the deposited data

Results flagged for a closer look

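The fold changes of 4 pairs of a gene and a subtype differed from those in CA1-like neurons by the interaction test in edgeR. Each pair was also called above from the same libraries, so this is not separate support. Ryr2 in Pvalb-like neurons differed by -0.88 ± 0.13 on the log2 scale (adjusted p = 0.00175), and both Syn-Cre libraries were below both flox/flox libraries in Pvalb-like neurons while the labels overlapped in CA1-like neurons (1018, 899, 842 and 912 CPM). Ryr1 in Pvalb-like neurons differed by -1.88 ± 0.45 (adjusted p = 0.0406), from 4 to 32 UMIs per library. Atp2a2 differed by 0.77 ± 0.15 in Sst-like neurons (adjusted p = 0.00924) and by 0.54 ± 0.13 in DG-like neurons (adjusted p = 0.0128), with both Syn-Cre libraries above both flox/flox libraries in these subtypes. Against Vip-like in place of CA1-like neurons the difference held for Ryr2 (-0.94, adjusted p = 0.000966), while that of Ryr1 was -1.69 (adjusted p = 0.371) and those of Atp2a2 were 0.47 in Sst-like (adjusted p = 0.189) and 0.18 in DG-like neurons (adjusted p = 0.771).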

How the results depend on the processing

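Of the alternatives to the 8 called fold changes, 80 kept the call and 28 lost it, and 0 changed sign. Calls among the 10 genes in neuron subtypes numbered 6, and 2 without the filter on low counts, 2 in thinned sums, and 2 (without Syn-Cre replicate 1) to 5 with 1 library left out. In glial and vascular classes 2 calls became 1 without the filter, 0 in thinned sums, 0 with doublets kept, 1 with names made without integration, and 2 to 3 with 1 library left out. Thinning cut each sum to 1075457 UMIs in neuron subtypes and 69783 in glia, so fewer counts were tested there; the cause of the other changes was not tested. The 4 interaction calls became 1 with DESeq2, 1 against Vip-like neurons and 1 to 3 with 1 library left out (3 without Syn-Cre replicate 2). For the list of 79 genes, alternatives chosen after seeing the data gave 33 calls without the filter and 51 to 63 with 1 library left out in neuron subtypes, against 56, and 16 by the likelihood ratio test, 3 without the filter, 1 in thinned sums and 10 to 23 (the latter without flox/flox replicate 2) with 1 library left out in glia, against 8. Nuclei with Derl3 had the higher value in 45 of 91 pairs after thinning. Levels stayed within 1 SD in 287 of the recomputed values and moved further in 53.

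The labels number the replicates alike in both groups, and same-numbered libraries also shared sex by Xist and Ddx3y, but the deviations of same-numbered libraries correlated at only 0.0849 in all neurons and at -0.0337 to 0.0820 in subtypes, so the numbers were not taken as pairs. With a replicate block 8 pairs were called in neuron subtypes, 5 in glial and vascular classes and 0 in all neurons, and 15 pairs of the list in glia.

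The 2 mice per label and the few UMIs of Ryr1, Itpr2 in oligodendrocytes, Itpr3 and Atp2a3 limit the calls. Where a library was left out, the lone mouse of its label was assumed to vary like the other label's.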

Other observations

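The genes whose levels followed those of each channel, pump or sensor most closely over classes were looked up, by Pearson's r of log2(CPM + 1) over 25 named classes and subtypes among 13527 genes. The points share libraries and depth, so the values are a description. For Ryr2 they were Dmtn, an actin-binding protein (r = 0.950), and D130043K22Rik (0.943), and for Ryr3 Gm47591 (0.879) and Cacna1e, the R-type calcium channel (0.879). For Ryr1 they were Slit3, a guidance cue (0.893), and Prmt8, a methyltransferase of neurons (0.881). Itpr1 had Gm44040, the antisense gene within its own span (0.924), and Sept11, a septin (0.884). Itpr2 had Mertk, a phagocytic receptor of glia (0.889), and Pld1, a phospholipase (0.872), and Itpr3 had Acvrl1, a receptor of endothelium (0.894). Atp2a3 had Foxf2, a transcription factor of pericytes (0.971), and Des, desmin (0.968). Stim1 had Tmem150a (0.838) and Stim2 had Kbtbd11 (0.747) and Hpca, hippocalcin (0.738). Atp2a2 had the lowest best match, Zic4 (0.683).

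Unnamed in the comparisons, thalamus-like nuclei held Itpr1 at 123, 119, 891 and 241 CPM from 247, 13, 50 and 65 nuclei.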
